A study of Mus musculus with 18 samples.

Results

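The genes described here are 5 genes that mark the primed epiblast, Fgf5, Pou3f1, Foxd3, Otx2 and Sall2. They were chosen by name, as the probes whose gene name is one of the 5 and which were present as noncontrol probes on all 18 arrays. Each has 1 probe, so the set is 5 of 41174 probes on the array and 5 of the 18876 genes tested. All 5 passed the filter on dim probes. The Otx2 probe is printed in 10 spots on each array and the other probes in 1, which makes 14 of 43379 noncontrol spots.

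The study measured total RNA of male-labelled mouse cells of strain C57BL/6 129SV mixed on Agilent one-colour arrays, in 9 groups of 2 arrays. Embryonic stem (ES) cells with a Stella-GFP transgene on a bacterial artificial chromosome, or with Dazl-GFP, were grown in Lif medium on feeder fibroblasts and sorted for the reporter. Stella is another name of Dppa3, and Dazl encodes an RNA-binding protein of germ cells. Undifferentiated cells make 4 groups, the Stella-GFP ES GFP- and GFP+ cells and the Dazl-GFP ES GFP- and GFP+ cells. GFP+ cells sorted after feeder-free differentiation, labelled as primordial germ cells made in vitro, make 3 more: the Stella line at day 7 of differentiation and the Dazl line at day 12 and day 16. The last 2 are Dazl-GFP+ germ cells sorted from embryonic gonads at E13.5 and from juvenile testes at postnatal days 7 to 11. Day 7 therefore comes from another reporter line than days 12 and 16. Nothing in the labels says whether the arrays of a group came from separate cultures or animals, so p-values measure only the spread between these arrays, which may be technical. With RNA of many sorted cells on each array, fewer cells expressing a gene and less RNA per cell cannot be told apart.

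Mouse ES cells in Lif medium resemble the naive epiblast of the blastocyst and can move towards the primed state of the epiblast after implantation. Fgf5 encodes a secreted fibroblast growth factor and is the usual marker of that step. Otx2 (a homeodomain factor) and Pou3f1 (a POU domain factor, also called Oct6) are transcription factors that rise early in it. Foxd3 is a forkhead factor active in naive and primed pluripotent cells and in neural crest, and Sall2 is a zinc finger relative of Sall4. Primordial germ cells arise from the epiblast, and Otx2 is known to restrain entry into the germline.

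In GRCm38.p6 coordinates, Fgf5 lies at chr5:98254184-98277033, Pou3f1 at chr4:124657646-124660655 and Foxd3 at chr4:99656299-99658671. Otx2 lies at chr14:48656781-48667644 and Sall2 at chr14:52311177-52328670. All 5 genes had their highest group mean in an ES group. The promoter reference held no window for Pou3f1. The 250 bases before the outermost annotated start of each of the other 4 are printed here. They come from RefSeq, GRCm38.p6, and lie at chr5:98253934-98254183 on the plus strand for Fgf5 and chr4:99656049-99656298 on the plus strand for Foxd3. Those of Otx2 (chr14:48667645-48667894) and Sall2 (chr14:52328671-52328920) are on the minus strand. Each reads 5′ to 3′, and capitals mark matches to a searched motif.
Fgf5: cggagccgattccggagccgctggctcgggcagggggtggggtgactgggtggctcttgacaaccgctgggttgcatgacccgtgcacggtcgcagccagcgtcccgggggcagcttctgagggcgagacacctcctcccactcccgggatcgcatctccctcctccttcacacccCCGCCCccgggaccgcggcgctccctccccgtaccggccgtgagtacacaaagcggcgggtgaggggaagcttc
Foxd3: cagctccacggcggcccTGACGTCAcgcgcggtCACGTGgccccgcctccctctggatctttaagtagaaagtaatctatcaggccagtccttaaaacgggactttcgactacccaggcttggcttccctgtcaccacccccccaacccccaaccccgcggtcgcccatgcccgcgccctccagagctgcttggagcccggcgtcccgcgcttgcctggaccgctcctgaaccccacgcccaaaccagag
Otx2: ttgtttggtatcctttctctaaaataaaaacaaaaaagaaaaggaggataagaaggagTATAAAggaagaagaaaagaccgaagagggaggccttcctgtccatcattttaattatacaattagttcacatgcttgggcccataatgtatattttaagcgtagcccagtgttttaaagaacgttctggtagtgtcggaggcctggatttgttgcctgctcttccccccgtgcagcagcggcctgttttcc
Sall2: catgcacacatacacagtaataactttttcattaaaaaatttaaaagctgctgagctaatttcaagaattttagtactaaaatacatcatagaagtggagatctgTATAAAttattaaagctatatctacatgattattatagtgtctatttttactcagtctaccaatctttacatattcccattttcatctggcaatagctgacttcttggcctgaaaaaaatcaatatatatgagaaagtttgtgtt

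Both strands were searched for 7 motifs. The Fgf5 window held a GC box (GGGCGG, read here as its reverse complement), which 32.74% of 32851 windows of this length hold. Foxd3 held a cyclic AMP response element (TGACGTCA, 1.55% of windows) and an E-box (CACGTG, 6.02%). The Otx2 and Sall2 windows each held TATAAA (12.37% of windows), 192 and 145 bases before the start. None of the 4 windows held TAATCC (the OTX motif, 6.25% of windows), ATGCAAAT (the octamer, 1.6%) or CTTTGAT (the LEF/TCF motif, 3.21%). The OTX motif, read as its reverse complement, lay 211 bases before another annotated start of Otx2. Only letters were matched, and no binding was measured.

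All levels are log2 processed signals minus the 75th percentile of their array, so a level of 0 is that percentile itself. That percentile ranged from 103 to 474 units, and 50.6 to 68.9% of noncontrol spots were well above background. Probes differ in brightness, so levels are compared between groups for 1 gene and never between genes. Dppa3 was higher in Stella-GFP ES GFP+ cells than in GFP- cells (5.15 and 5.34 against 2.60 and 2.63) and Dazl was higher in Dazl-GFP ES GFP+ than GFP- cells (0.79 and 0.73 against -3.29 and -3.42), in the direction of the sorts. E13.5 replicate 1 stood apart. It is labelled male, but the Y-linked Ddx3y was at -7.45 there and not above background, against -1.36 in replicate 2. The Y-linked Eif2s3y (-7.29 against 3.17) and Kdm5d (-7.25 against -1.82) were also above background in replicate 2 only. Uty, also Y-linked, and the X-linked Xist were above background on neither array. Results of the 5 genes that use E13.5 are therefore given with and without replicate 1. Arrays lay on 6 slides. The first replicates of all ES groups shared slide 1, the day 7 arrays had slides 4 and 5, and E13.5 and juvenile arrays shared slide 6. For day 7 against ES cells and for E13.5 against cultured cells, slide and group cannot be told apart.

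**Figure D1:**
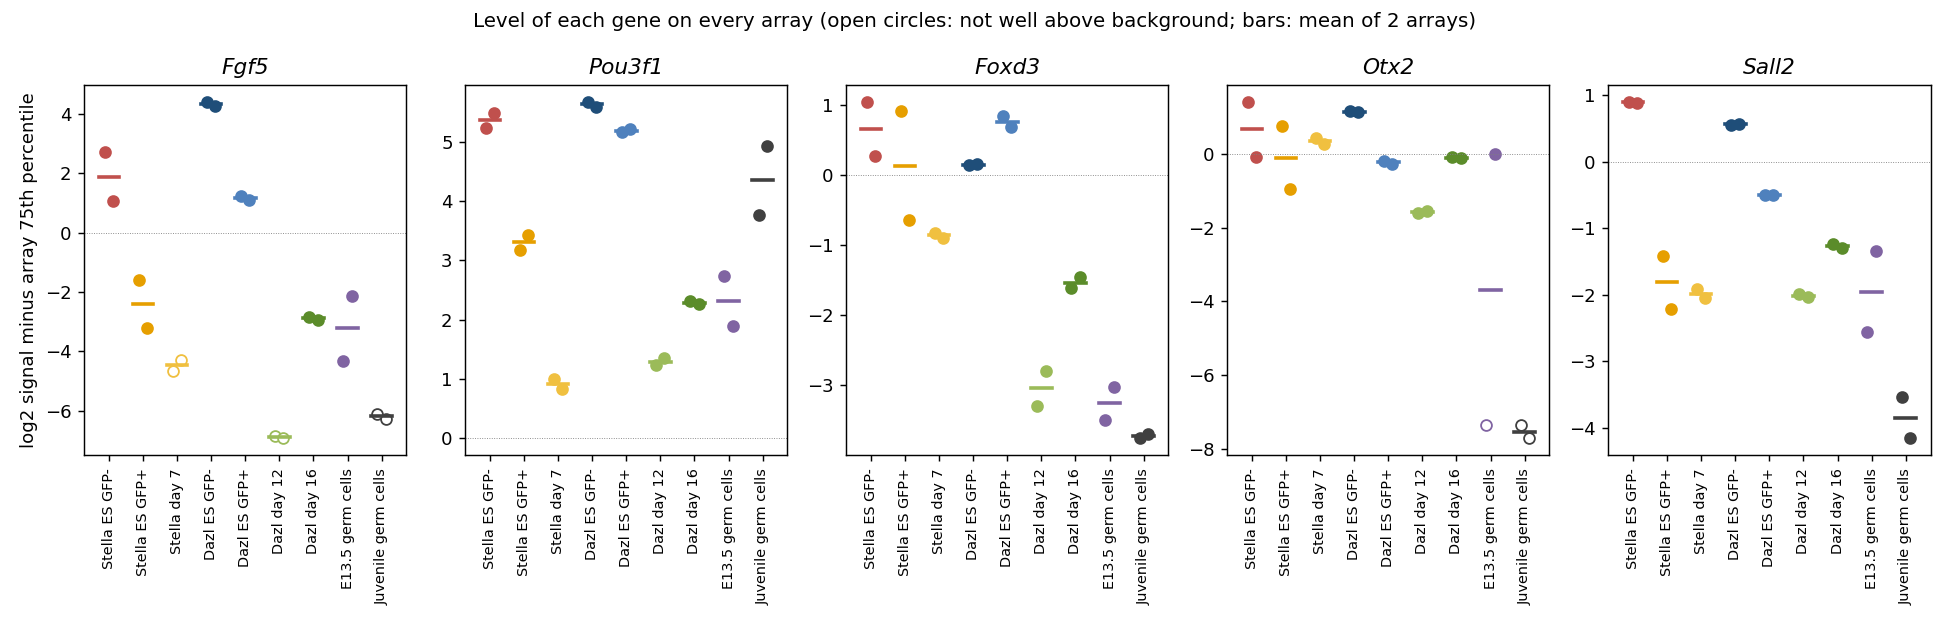
Level of each gene on every array, as log2 signal minus the array's 75th percentile, in 9 groups of 2 arrays. Filled circles are well above background, open circles are not, and bars are group means. Fgf5 spans the widest range, from -6.94 to 4.42, and the E13.5 arrays of Otx2 lie at -7.36 and -0.01.

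Fgf5 had the widest range of the 5 genes, 11.36 log2 units over 18 arrays, and was well above background on 12 of them. Its levels were 4.42 and 4.29 in Dazl-GFP ES GFP- cells and 2.74 and 1.06 in Stella-GFP ES GFP- cells. In Dazl-GFP ES GFP+ cells it was at 1.23 and 1.12, and in Stella-GFP ES GFP+ cells at -1.59 and -3.20. Dazl-GFP ES GFP- cells stood above every other group, without overlap. The levels were -2.85 and -2.93 at day 16 and -4.31 and -2.13 at E13.5, which overlapped each other. At day 7 (-4.66 and -4.30), at day 12 (-6.87 and -6.94) and in juvenile germ cells (-6.10 and -6.28) neither array had Fgf5 well above background. The order among these 3 groups is therefore not a measured one.

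Pou3f1 was well above background on all 18 arrays. It was at 5.67 and 5.59 in Dazl-GFP ES GFP- cells, 5.24 and 5.48 in Stella-GFP ES GFP- cells and 5.16 and 5.21 in Dazl-GFP ES GFP+ cells. Juvenile germ cells followed, at 3.76 and 4.93, and then Stella-GFP ES GFP+ cells at 3.18 and 3.42. The juvenile arrays thus reached above those of every differentiated group and of E13.5, at 2.73 and 1.90. Day 16 was at 2.31 and 2.26, overlapping E13.5, and the lowest groups were day 12 at 1.23 and 1.35 and day 7 at 0.995 and 0.83.

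Foxd3 was highest in the ES groups. Dazl-GFP ES GFP+ cells had 0.84 and 0.69, Stella-GFP ES GFP- cells 1.05 and 0.27, Dazl-GFP ES GFP- cells 0.15 and 0.16, and Stella-GFP ES GFP+ cells 0.92 and -0.64. These groups overlapped in part, and the authors' deposited table of group means puts Stella-GFP ES GFP- cells highest in place of Dazl-GFP ES GFP+ cells. Below them came day 7 at -0.82 and -0.89 and day 16 at -1.61 and -1.46. Day 12 (-3.29 and -2.79) and E13.5 (-3.49 and -3.03) overlapped, and juvenile germ cells were lowest at -3.76 and -3.70.

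Otx2 was high in ES cells, at 1.17 and 1.12 in Dazl-GFP ES GFP- cells and 1.41 and -0.08 in Stella-GFP ES GFP- cells. It was at 0.74 and -0.94 in Stella-GFP ES GFP+ cells and at -0.20 and -0.26 in Dazl-GFP ES GFP+ cells. Day 7 (0.44 and 0.27) and day 16 (-0.09 and -0.11) lay among the ES arrays, and day 12 was below them at -1.61 and -1.54. Juvenile germ cells were not above background, at -7.36 and -7.71. The 2 E13.5 arrays disagreed, with -7.36, not above background, in replicate 1 and -0.01 in replicate 2.

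Sall2 was highest in the GFP- cells of both lines, at 0.90 and 0.89 in Stella-GFP ES GFP- cells and 0.56 and 0.57 in Dazl-GFP ES GFP- cells. Dazl-GFP ES GFP+ cells followed at -0.50 on both arrays and day 16 at -1.23 and -1.30. Then 4 groups overlapped: Stella-GFP ES GFP+ cells at -1.42 and -2.21, E13.5 at -2.57 and -1.35, day 7 at -1.92 and -2.04, and day 12 at -1.99 and -2.04. Juvenile germ cells were lowest, at -3.54 and -4.16.

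The first pair of comparisons asks how reporter-positive ES cells differ from reporter-negative cells of the same line. In the Stella sort Fgf5, Pou3f1 and Sall2 fell in GFP+ cells, the first by 19.6-fold and Pou3f1 by 4.16-fold. Each standard error (SE) here rests on a spread shared by all 9 groups of 2 arrays. On the log2 scale the differences were -4.29 ± 0.69 (SE) for Fgf5, -2.06 ± 0.34 for Pou3f1 and -2.71 ± 0.36 for Sall2. Their adjusted p-values from limma with Benjamini-Hochberg adjustment over all genes were 0.0236, 0.0274 and 0.0112. Thus 3 of the 5 genes passed the threshold of 0.05, all lower, where 0.44% of all genes tested were called and 0.35% called lower. Foxd3 (-0.53 ± 0.42) and Otx2 (-0.77 ± 1.62) did not pass, each with an adjusted p of 1 from limma. The difference of Fgf5 was -4.33 within slide 1 and -4.26 within slide 2, and that of Pou3f1 was -2.06 and -2.05. The calls were lost with slide as a block in limma, with adjusted p-values of 0.0655 for Fgf5, 0.128 for Pou3f1 and 0.0655 for Sall2. None of the 3 was called without Stella-GFP ES GFP- replicate 1 or without GFP+ replicate 2, 1 was called without GFP- replicate 2 and 2 were called without GFP+ replicate 1, with all 3 lower in each case. None was called when only these 4 arrays were fitted (adjusted p = 0.505 to 0.530 in limma).

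The Stella-GFP ES replicates differed in level for 3 genes in both gates. Replicate 1 exceeded replicate 2 by 1.68 in GFP- and 1.61 in GFP+ cells for Fgf5, and by 1.49 and 1.69 for Otx2. For Foxd3 the excess was 0.78 and 1.56. The median absolute difference between replicates over all genes was 0.314 and 0.363 in these groups. Pou3f1 went the other way, by -0.24 and -0.25, and Sall2 differed by 0.01 in GFP- and 0.79 in GFP+ cells.

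In the Dazl sort Fgf5 alone of the 5 genes passed, 9.08-fold lower in GFP+ cells (-3.18 ± 0.69, adjusted p = 0.0342 from limma). Of all genes tested, 2.87% were called and 1.39% called lower. The value was -3.19 within slide 1 and -3.17 within slide 3. Its call was lost with slide as a block (adjusted p = 0.0653 in limma) and on leaving out any 1 of the 4 arrays compared (0.174 to 0.206). Sall2 was lower without overlap (-1.06 ± 0.36) but did not pass (adjusted p = 0.174 from limma). Pou3f1 differed by -0.44 (adjusted p = 0.717 from limma), Otx2 by -1.38 (0.877) and Foxd3 by 0.61 in the direction of GFP+ cells (0.645).

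The sorts of the 2 lines were compared directly in limma, and none of the 5 genes passed, where 0.0318% of all genes did. For Pou3f1 the Stella difference minus the Dazl difference was -1.62 ± 0.48 (adjusted p = 0.5 and unadjusted p = 0.00609 from limma) and for Sall2 it was -1.65 ± 0.51 (0.537 and 0.00731). The other 3 genes had unadjusted p-values above 0.05. The unlike calls of Pou3f1 and Sall2 in the sorts are therefore not shown to be unlike effects.

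Among 18 other primed epiblast genes, 1 fell between the Stella-GFP gates and 2 between the Dazl-GFP gates, with median differences of -0.94 and -0.96 against 0.01 and 0.05 over all genes. Pim2, a serine/threonine kinase gene, fell in both, by 2.56 and 1.47 on the log2 scale. Lin28b, which encodes an RNA-binding protein that blocks let-7 processing, fell in the Dazl sort by 1.10. Without E13.5 replicate 1, which enters only through the shared spread, the median differences of the 18 stayed at -0.94 and -0.96. Fgf8, another fibroblast growth factor and a gene of the primitive streak, was the 1 gene called in either sort among 22 of the FGF pathway list, at -3.41 ± 0.35 and -3.48 ± 0.35. Of 14 naive pluripotency genes, 1 (Dppa3) rose between the Stella-GFP gates and 6 between the Dazl-GFP gates, Klf2 by 1.27 and Esrrb by 1.32 among them.

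Markers of other cells moved with the sorts. Primitive streak markers had a summed level of 5.77 to 5.79 in Dazl-GFP ES GFP- cells against 2.21 to 2.25 in GFP+ cells, and 1.59 to 2.82 against -0.90 to -0.10 in the Stella-GFP line. Of 7 such markers 5 fell between the Dazl-GFP gates and 1 (Fgf8) between the Stella-GFP gates, and Mixl1 was not above background in any ES group but Dazl-GFP ES GFP- cells. Endoderm markers summed to 5.06 to 5.17 against 1.09 to 1.28 in the Dazl sort, with Afp, Apoa1, Foxa1 and Ttr not above background in either. Feeder fibroblast markers were higher in Dazl-GFP ES GFP+ cells, at 5.41 to 5.52 against 3.30 to 3.37, and 6 of 12 rose. The part of these cells in the differences of the 5 genes was not tested.

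**Figure D2:**
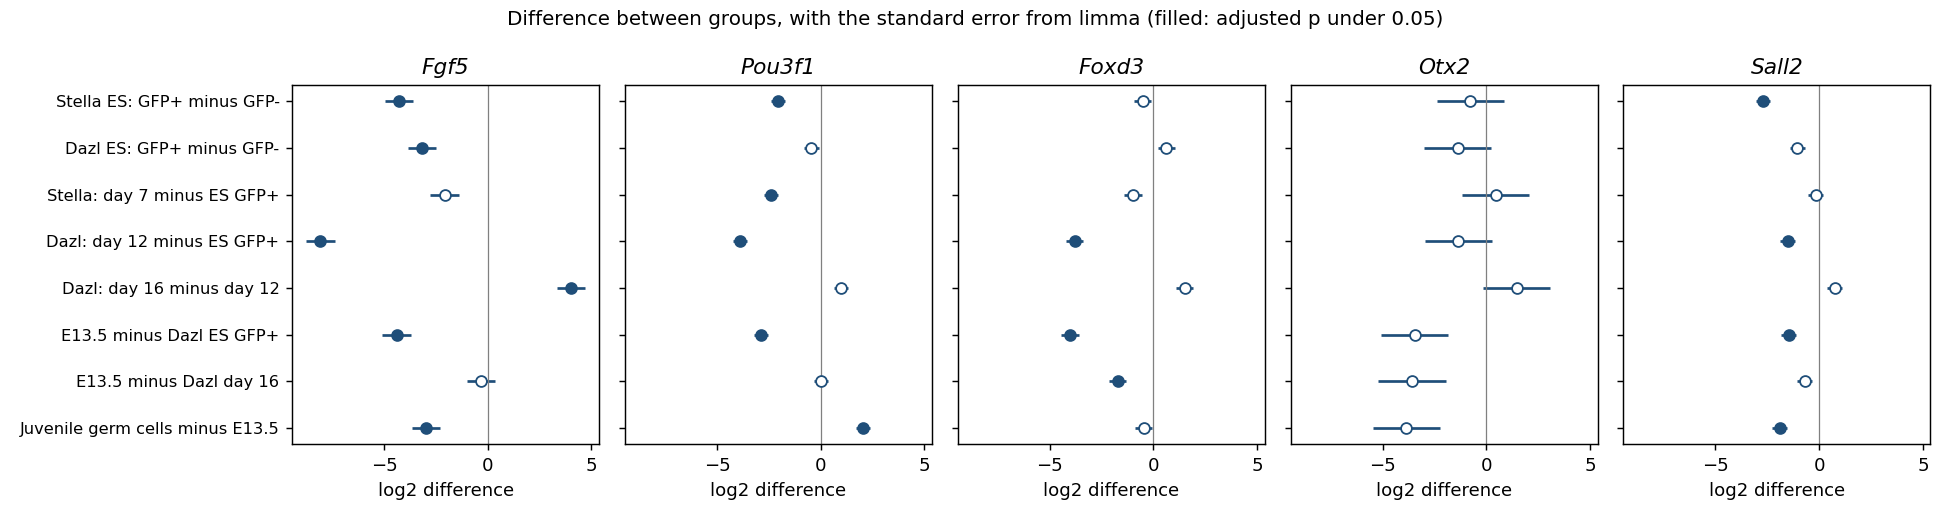
Difference of each gene between groups in 8 comparisons, in log2 units, with bars of 1 standard error from limma on 18 arrays. Filled points have an adjusted p under 0.05. Fgf5 differs by -4.29 between the Stella-GFP gates and by -3.18 between the Dazl-GFP gates, and the bars of Otx2, at 1.62, are the widest.

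The comparisons with differentiated cells ask what the reporter-positive cells had gained or lost after days in culture. They share arrays with the sorts (Stella-GFP ES GFP+ cells with day 7, Dazl-GFP ES GFP+ cells with day 12 and E13.5), so their values are only set side by side. At day 7 Pou3f1 fell against Stella-GFP ES GFP+ cells, by 2.39 ± 0.34 on the log2 scale (adjusted p = 0.00088 from limma). It was the 1 gene of 5 called, where 20.6% of all genes were called and 13% called lower. Fgf5 was at least 4.09-fold lower but did not pass (adjusted p = 0.0519 from limma). An "at least" value here sets the measured mean against a limit on the arrays where the gene was not above background. On each such array the limit was the dimmest signal still above background there, or the gene's own signal where that was brighter. With a stricter filter on dim probes Fgf5 passed (adjusted p = 0.0442 from limma), where 24.9% of all genes were called. In the full data Foxd3 differed by -0.99 (adjusted p = 0.115 from limma), Sall2 by -0.17 (0.784) and Otx2 by 0.45 (0.884).

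By day 12, 4 of the 5 genes had fallen against Dazl-GFP ES GFP+ cells, where 27.3% of all genes were called and 14.2% called lower. Fgf5 was at least 66.1-fold lower (adjusted p = 1.53e-05 from limma). Pou3f1 fell by 3.90 ± 0.34 (adjusted p = 1.83e-05) and Foxd3 fell by 3.80 ± 0.42 (8.6e-05). Sall2 fell by 1.52 ± 0.36 (adjusted p = 0.00931 from limma), a call lost with normexp (0.101), with slide as a block (0.0639) and on leaving out any 1 of the 4 arrays compared. Otx2 differed by -1.35 ± 1.62 and did not pass (adjusted p = 0.574 from limma), although its groups did not overlap.

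The 18 other primed epiblast genes went from 6 lower and 1 higher at day 7 to 12 lower and none higher at day 12, each against the ES cells of its own line. Their median difference was -0.37 at day 7 and -2.25 at day 12, against -0.15 and -0.11 over all genes. Dnmt3b, a de novo DNA methyltransferase gene, fell by 2.71 at day 7 and by 3.61 at day 12. Tcf15, a basic helix-loop-helix factor gene, fell by 2.87 and by 2.40. The 1 higher call at day 7 was between signals that were not above background on any of the 4 arrays, and no value is given for it. In the FGF pathway list 6 of 22 fell at day 7, and 8 fell and 1 rose at day 12. Fgf15 fell by 3.58 at day 7 and was at least 15-fold lower at day 12. Fgf18, another ligand gene, fell by 1.89 at day 7 and fell by 1.37 at day 12. Naive genes split, with 1 higher and 2 lower of 14 at day 7 and 2 higher and 2 lower at day 12. Feeder fibroblast markers were lower at both times (7 of 12 fell at day 7 and 9 at day 12), and primitive streak markers fell at day 12 (5 of 7, with Mixl1 among them not above background in either group). Their part in the falls was not tested.

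From day 12 to day 16 all 5 genes were higher without overlap of the arrays, but Fgf5 alone passed, at least 3.95-fold higher (adjusted p = 0.0168 from limma), where 1% of all genes were called and 0.609% called higher. The call was lost on leaving out any 1 of the 4 arrays compared (0.120 to 0.152). Pou3f1 differed by 0.9996 (adjusted p = 0.36 from limma), Foxd3 by 1.502 (0.188), Otx2 by 1.48 (1) and Sall2 by 0.75 (0.682). The differences were alike on slides 2 and 3, where Foxd3 had 1.67 and 1.33 and Otx2 1.52 and 1.43. Of the 22 FGF pathway genes Fgf15 rose, at least 4.33-fold. Endoderm markers summed to 1.23 to 1.32 at day 16 against -0.03 to 0.15 at day 12, and neural markers to 2.48 to 2.56 against 1.86 to 2.10. Their part in these differences was not tested.

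**Figure D3:**
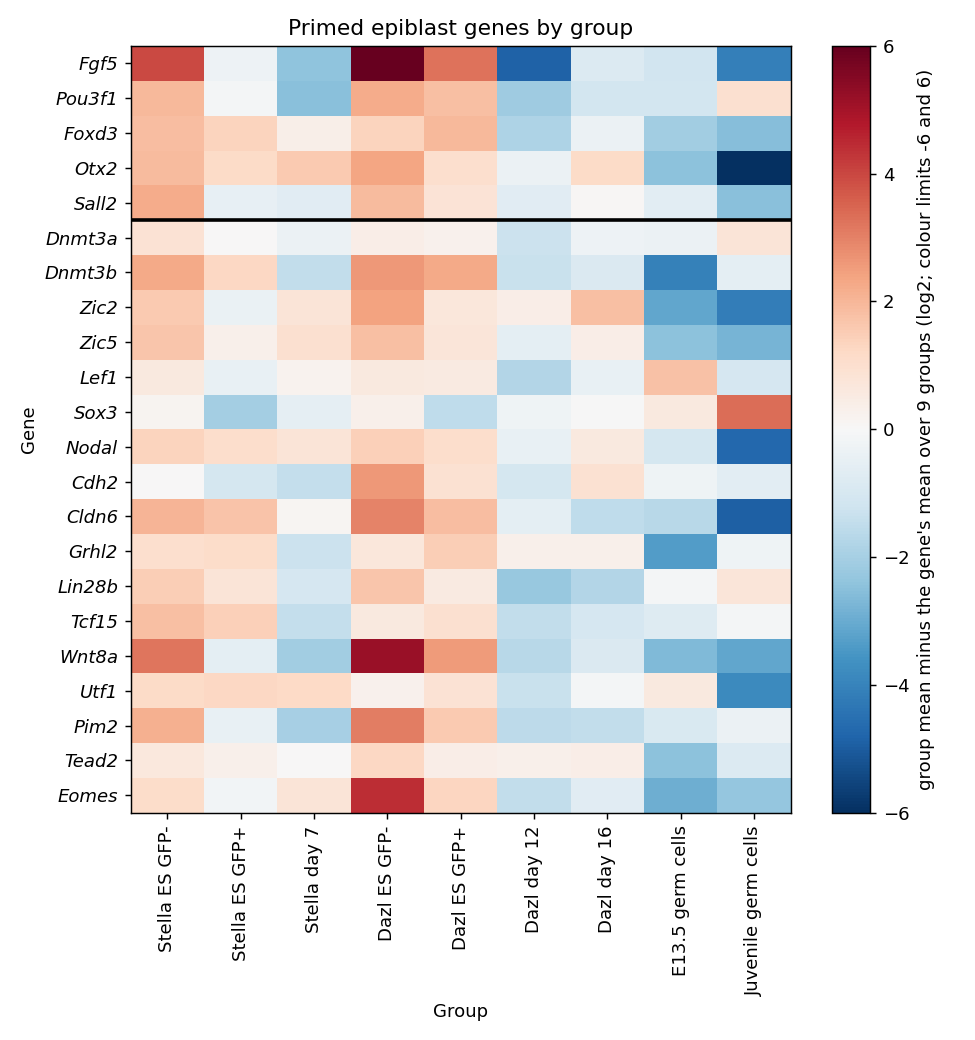
Group means of the 5 genes (above the line) and of 17 of the 18 other primed epiblast genes, each minus the gene's own mean over 9 groups, in log2 units, with colours saturating at -6 and 6. Most rows are red in the GFP- ES groups and blue at day 12. Pou3f1, Dnmt3a and Lin28b are faintly red again in juvenile germ cells, where Sox3 is at its reddest.

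Against Dazl-GFP ES GFP+ cells, E13.5 germ cells had 4 of the 5 genes lower, where 44.8% of all genes were called and 21.4% called lower. Fgf5 fell by 4.39 ± 0.69 (adjusted p = 0.000349 from limma), Foxd3 by 4.02 ± 0.42 (1.86e-05), Pou3f1 by 2.87 ± 0.34 (5e-05) and Sall2 by 1.46 ± 0.36 (0.00615). All 4 were still called with either E13.5 array left out. Without replicate 1 the differences were -3.31 for Fgf5, -3.79 for Foxd3, -3.29 for Pou3f1 and -0.85 for Sall2, and without replicate 2 they were -5.48, -4.25, -2.45 and -2.07. The call of Sall2 was lost when only these 4 arrays were fitted (adjusted p = 0.113 in limma). Otx2 differed by -3.45 ± 1.62, a mean over 1 array above background and 1 that was not, and did not pass (adjusted p = 0.104 from limma).

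Set against day 16, the in vitro end point, E13.5 germ cells had only Foxd3 lower, by 1.72 ± 0.42 (adjusted p = 0.00631 from limma), where 42.5% of all genes were called and 18.4% called lower. Fgf5 differed by -0.33 ± 0.69 and Pou3f1 by 0.03 ± 0.34, and their arrays overlapped. Sall2 differed by -0.69 ± 0.36. Without E13.5 replicate 2, Sall2 was called too, at -1.30 (adjusted p = 0.00618 from limma), and Otx2 was at least 40.1-fold lower (1.62e-05), while Fgf5 differed by -1.42, Pou3f1 by 0.45 and Foxd3 by -1.95. Without replicate 1 Foxd3 alone was called, at -1.49 (adjusted p = 0.0389 from limma), and Fgf5 differed by 0.76, Pou3f1 by -0.39 and Sall2 by -0.08. The signs of Fgf5 and Pou3f1 thus turned with the array left out. With normexp background correction 4 of the 5 were called, where 73% of all genes were.

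Of the 18 other primed epiblast genes, 11 fell and 1 rose at E13.5 against ES cells, and 5 fell and 2 rose against day 16. Dnmt3b changed by -6.33 and -3.20, and Grhl2, an epithelial grainyhead factor gene, by -4.83 and -3.68. Zic2 was at least 4.82-fold and 10.3-fold lower. Lin28b and Lef1, a nuclear partner of beta-catenin, rose against day 16 by 1.67 and 2.22. Without E13.5 replicate 1, 7 fell and 5 rose against day 16. Of 22 FGF pathway genes 6 rose and 5 fell against day 16, and 8 rose and 3 fell without that array. Spry2, a feedback inhibitor, fell by 2.84 against ES cells and by 1.03 against day 16, and the receptor gene Fgfr3 rose by 1.24 and 1.25. Of 14 naive genes 11 fell and 2 rose against ES cells, and 10 fell and 1 rose against day 16. Dppa3 rose in both, by 1.97 and 2.63, and Pecam1 rose against ES cells by 1.44. Feeder fibroblast markers fell at E13.5, 10 of 12 against ES cells and 7 of 12 against day 16. Their part in the falls was not tested.

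Otx2 turned on 1 array. Its 10 spots gave 1.68 to 2.63 units of processed signal in E13.5 replicate 1, none above background, and 327 to 382 units in replicate 2, all above. No spot was marked as an outlier. The difference between the replicates, -7.34 log2 units as fitted and at least 42.5-fold against the dimmest signal above background, was exceeded in size by 0.0583% of genes in that group, where the median was 0.516. Without replicate 1 Otx2 differed from ES cells by 0.22 (adjusted p = 0.816 from limma) and from day 16 by 0.09 (0.928). Without replicate 2 Otx2 was at least 36.6-fold lower at E13.5 than in ES cells (adjusted p = 1.15e-05 from limma). This pair also set the error of Otx2 in every other comparison, which was 1.62 with both arrays and 0.52 for comparisons without E13.5 when replicate 1 was left out. At that error Otx2 still did not pass in either sort, at day 7, at day 12 or from day 12 to day 16. Fitted on only the arrays compared, Otx2 was called in the Dazl sort (-1.38 ± 0.08, adjusted p = 0.0141 from limma). In such fits it was also called at day 12 (0.00382) and from day 12 to day 16 (0.013), but not in the Stella sort or at day 7. Of all genes 14%, 49% and 19.7% were called in those 3 comparisons where Otx2 was.

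The other members differed less between the E13.5 arrays, Fgf5 by -2.18, Sall2 by -1.22, Foxd3 by -0.46 and Pou3f1 by 0.83. Sertoli cell markers also differed, with a summed level of -0.72 to 2.41 over the E13.5 arrays, and their part was not tested.

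**Figure D4:**
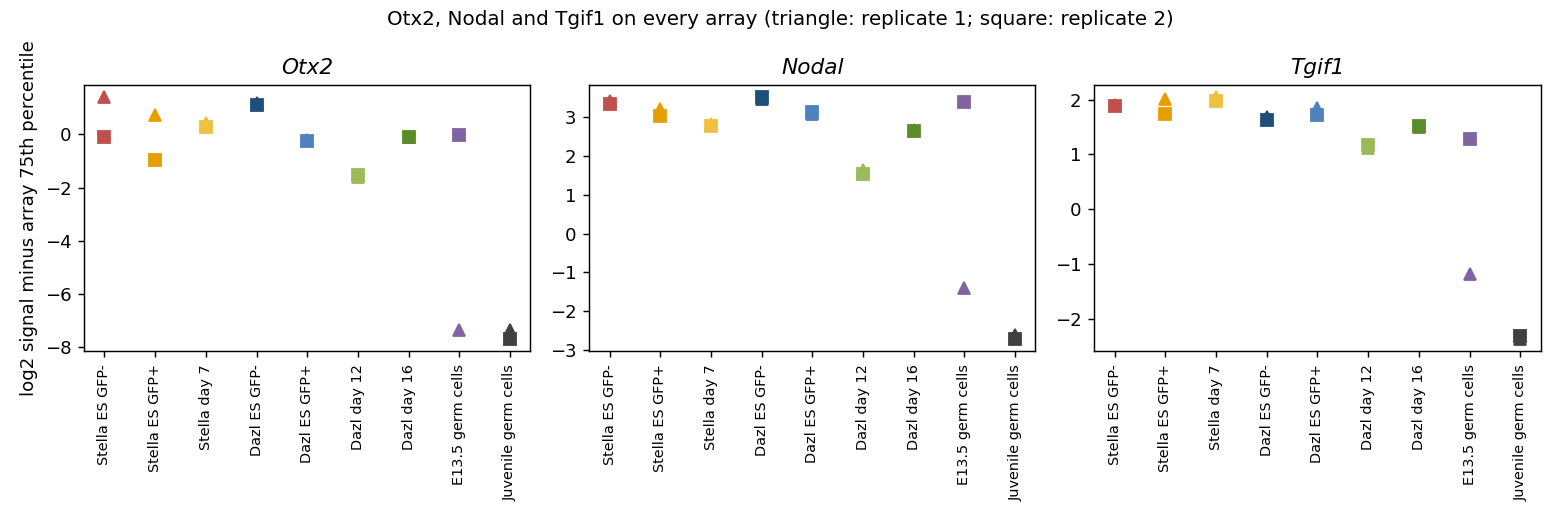
Levels of Otx2, Nodal and Tgif1 on every array, as log2 signal minus the array's 75th percentile, with triangles for replicate 1 and squares for replicate 2. At E13.5 replicate 1 lies at -7.36, -1.39 and -1.19 and replicate 2 at -0.01, 3.37 and 1.28.

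In juvenile germ cells the 5 genes went apart. Against E13.5, Pou3f1 rose by 2.03 ± 0.34 (adjusted p = 0.000827 from limma), the only rise called among the 5 genes in these comparisons besides that of Fgf5 from day 12 to day 16. Fgf5 was at least 5.56-fold lower (adjusted p = 0.00586 from limma) and Sall2 fell by 1.89 ± 0.36 (0.00178). Foxd3 differed by -0.47 (adjusted p = 0.433 from limma). Of all genes 34.8% were called, 16% higher and 18.9% lower. Otx2 was at least 4.04-fold lower and did not pass (adjusted p = 0.088 from limma). Without E13.5 replicate 1 it was at least 51.4-fold lower (1.28e-05), and without replicate 2 neither group was above background and no fold is given.

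Without E13.5 replicate 1 the juvenile differences were 2.45 for Pou3f1, -2.50 for Sall2 and at least 11.8-fold lower for Fgf5, and without replicate 2 they were 1.62, -1.28 and at least 2.62-fold lower. All 3 stayed called in both cases. Fgf5 was not called with normexp background correction (adjusted p = 0.101 in limma), and none of the 3 when only these 4 arrays, all on slide 6, were fitted (0.133 to 0.154), where 1.92% of all genes were called. Of the 18 other primed epiblast genes 6 rose and 5 fell. Dnmt3b rose by 3.47, Grhl2 by 3.09, Sox3, a SoxB1 factor gene, by 2.79 and Dnmt3a by 1.14, while Utf1, a chromatin factor gene of pluripotent cells, fell by 4.40. In the FGF pathway 10 of 22 fell, the receptor gene Fgfr2 by 4.20 among them, and Fgfr4 rose by 1.15. Sertoli cell markers summed to 2.55 to 3.91 in juvenile samples, all 7 above background on both arrays. The fibroblast markers summed to 2.95 to 3.19 against 0.79 to 1.02 at E13.5, and 6 of 12 rose. Endoderm markers summed to 2.65 to 4.76 against 0.18 to 0.56, and 1 of 5 tested rose. Of 7 macrophage markers 3 fell. The part of these cells in the differences was not tested.

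Pou3f3, the POU domain relative nearest in pattern to Pou3f1, had a Pearson correlation with it of 0.970 over 18 arrays. It fell in the Stella sort by 2.44 and at day 12 by 2.84, fell at E13.5 against ES cells by 1.97 and rose in juvenile germ cells by 2.03. Whether the 2 probes share signal was not tested. Correlations here are descriptions over 18 arrays of 9 groups, which share groups and slides and are not independent. Hyal2 (0.934) and Cisd2 (0.932) followed for Pou3f1. Fgf5 was most like Cdk2ap1 (0.938), Mmp25 (0.926) and 9130008F23Rik (0.922), with 0.871, 0.932 and 0.867 over the 12 arrays where Fgf5 was above background. Foxd3 was most like Dnase2a (0.961), Myc (0.957) and Efl1 (0.955). Sall2 was most like Calcr (0.959), Mfap3l (0.930) and Lpar4 (0.909).

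Otx2 was most like Nodal, a signalling ligand of the epiblast (0.979), Alkbh8 (0.975) and Tgif1, a homeodomain repressor gene (0.966). Over the 15 arrays where Otx2 was above background these values were 0.801, 0.742 and 0.622. Nodal and Tgif1 were also lower in E13.5 replicate 1 than in replicate 2, by -4.76 and -2.47, differences that 0.493% and 4.94% of genes exceeded. Among the 5 genes, Fgf5 and Sall2 were most alike (0.891, and 0.864 without the 2 arrays farthest from the median of Fgf5), and Pou3f1 and Otx2 least (0.0242).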

How the data were processed

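Scanner files hold spot intensities that the authors deposited. Per the file headers, Agilent Feature Extraction 9.1.3.1 made the background-subtracted processed signal, and the day 7 arrays used another extraction protocol than the others. The authors' deposited table gives group means of background-subtracted intensity normalized to medians in GeneSifter, per the file headers. It was used as an alternative and has no replicate values.

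From the files, flagged outlier spots and control spots were left out, spots of a probe averaged, and the log2 processed signal taken minus the array's 75th percentile. Of 41174 probes, 172 were left out for flags. A gene was represented by its brightest probe among 28114 that were well above background on each array of 1 or more groups, leaving 18876 genes. limma 3.58.1 in R 4.3.3 fitted all 9 groups (9 residual degrees of freedom). p-values were adjusted by Benjamini-Hochberg over all genes and called under 0.05. Having 2 arrays per group limits the precision. The script was tested on simulated data. Names came from RefSeq accessions for 22846 probes and by symbol for 9721, and 8435 kept the file's name.

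The 5 genes, the gene lists and the tests were chosen with earlier results of these data known. Named genes are the 5, the called list genes with the smallest p (up to 4 per direction, list and comparison), and the 3 genes most correlated with each of the 5. The marker genes Mixl1, Ddx3y, Eif2s3y, Kdm5d, Uty, Xist, Dazl, Afp, Apoa1, Foxa1 and Ttr fall outside that rule and were named after their values were seen. The values of 1 list gene are not reported here. Alternatives were quantile normalization, normexp (offset 50), other probe filters, the mean over a gene's probes, slide and replicate blocks, fitting only the arrays compared, and leaving out each array.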

Additional observations from a re-analysis of the deposited data

How the results depend on the processing

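Across 220 alternative values of the 18 called differences of the 5 genes, 184 stayed called in the same direction, 36 lost the call and none changed sign. Of the uncalled differences, 22 values became called and 12 changed sign, among them Fgf5 between the sorts under normexp (0.54) and Pou3f1 at E13.5 against day 16 under quantile normalization (-0.22). Counts of genes called changed as follows. With slide as a block, 0 of the 5 were called in the Stella sort, and the Dazl sort had 0. Of all genes 0.101% and 0.964% were called there. Fitted on only the arrays compared, which leaves few residual degrees of freedom, 0 were called in the Stella sort, 4 in the Dazl sort, 5 at day 12, 5 from day 12 to day 16 and 0 in juvenile germ cells, where 0%, 14%, 49%, 19.7% and 1.92% of all genes were. Under normexp 2 were called from day 12 to day 16 and 4 at E13.5 against day 16, where 37.3% and 73% of all genes were. A stricter filter on dim probes gave 2 at day 7, where 24.9% of all genes were called. The cause of these changes was not tested. Leaving out 1 array gave Pou3f1 differences of -2.18 to -1.93 in the Stella sort and -0.48 to -0.40 in the Dazl sort. They were -2.51 to -2.26 at day 7, -3.96 to -3.84 at day 12 and 0.94 to 1.06 from day 12 to day 16. E13.5 gave -3.29 to -2.45 against ES cells and -0.39 to 0.45 against day 16, and juvenile germ cells 1.45 to 2.62. Otx2 ranged from -7.12 to 0.22 at E13.5 against ES cells. A lone array is then assumed to vary like the other groups.

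The labels give groups the same replicate numbers, without saying what they share. Deviations of same-numbered arrays correlated at 0.558 in the Stella sort, 0.41 in the Dazl sort, 0.329 at day 12 and 0.549 from day 12 to day 16. The values were -0.034 at day 7, -0.01 at E13.5 against ES cells, 0.021 at E13.5 against day 16 and 0.245 in juvenile germ cells against E13.5. With a replicate block the count stayed at 3 in the Stella sort, 1 in the Dazl sort and 4 at day 12. Of all genes 0.408%, 2.8% and 27.3% were called there, and no member's call changed. Over all genes, quantile normalization moved the share of called genes that were higher at day 7 from 37% to 47.4%, and normexp moved the median of all genes at E13.5 against day 16 from 0.185 to -0.541. What depth limits here is signal over background: Fgf5 at day 7, day 12 and in juvenile germ cells, and Otx2 in juvenile germ cells, are bounds.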
